A study of Homo sapiens with 24 samples.

Results

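T-box transcription factors share a DNA-binding domain, and 10 genes of this family were followed here: TBX15, TBX18, TBX1, TBX2, TBX3, TBX5, TBX6, TBXT, EOMES and TBR1. They were taken by gene symbol from 61551 counted genes, and TBX15 was included because its count differed from the control in every edited genotype at both stages. The cells were of H9, an established line of human embryonic stem cells (ESCs). Unedited cells with the human HAR123 enhancer (hHAR123) were the control. HAR123 was deleted in HAR123-KO cells, and was exchanged for its chimpanzee ortholog in cHAR123 cells and for its mouse ortholog in mHAR123 cells. RNA was sequenced from 3 libraries of each genotype as ESCs and as neuroectoderm, 24 libraries in all. Neuroectoderm was made by 5 days of culture with Noggin, an inhibitor of BMP signaling, and SB431542, an inhibitor of the TGF-beta and Nodal receptors, so stage and medium changed together. The study used a pair of clones per genotype, and the sources used here do not tie libraries to clones. P-values therefore measure the spread between these libraries, part of which may be technical.

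T-box proteins bind DNA through a related motif and act as activators, repressors or both. TBXT (Brachyury) and EOMES are classic regulators of the primitive streak and mesendoderm, and TBX6 directs paraxial mesoderm. TBX15 and TBX18 are close relatives with roles in mesenchyme and skeleton, TBX2 and TBX3 are repressors active in heart, limb and sensory organs, TBX5 acts in heart and forelimb, TBX1 acts in the pharyngeal apparatus, and TBR1, with EOMES, belongs to the excitatory lineage of the cerebral cortex.

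Library totals ranged from 21022748 to 35198684 counts. The 8 pluripotency genes examined summed to between 4471 and 4770 CPM (counts scaled to a common library total) in the ESC libraries and to between 1643 and 2305 CPM in neuroectoderm. The neuroectoderm sum was mostly LIN28A and SOX2. In hHAR123, mean POU5F1 fell from 1139 to 15.4 CPM between the stages and NANOG from 157 to 1.26 CPM. LIN28A fell only from 2002 to 1555 CPM, and SOX2, alone of the 8, rose, from 206 to 542 CPM. The 8 neuroectoderm genes summed to between 53.1 and 62.1 CPM in ESCs and to between 633 and 1352 CPM in neuroectoderm, with the lowest neuroectoderm sums, 633 to 646 CPM, in HAR123-KO. Of these genes only ZIC1 averaged higher in HAR123-KO than in hHAR123 neuroectoderm, at 88.2 against 17.7 CPM. HAR123 lies in an intron of SMG6, so exon counts cannot show the deletion. The study's own gene table and the count columns disagree on 2 genotypes in neuroectoderm: its mean levels for cHAR123 equal those of the columns labelled mHAR123, and the reverse, whereas in ESCs each equals its own columns. Values are given by column label, so a statement that sets cHAR123 apart from mHAR123 in neuroectoderm would exchange these names if the labels were crossed.

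Of the 10 members, TBX15 and TBX6 were counted in every library at 25 counts or more, and TBX2 reached comparable counts only in neuroectoderm. The other 7 members stayed at 17 counts or fewer in every library and passed the filter on low counts in none of the pairwise comparisons. Levels of different genes can be compared only per length of counted exon. On that scale (CPM per kb), TBX15 had the highest median of the 10 members in ESCs, 1.92, with a range of 0.645 to 2.34 over 12 libraries. It was followed by TBX6 at a median of 0.607, with a range of 0.449 to 0.760. The lowest TBX15 libraries, those of hHAR123, overlapped the TBX6 range. In neuroectoderm the medians were 1.16 CPM per kb for TBX15 (range 0.274 to 1.91) and 0.813 for TBX6 (range 0.619 to 1.19), and TBX2 followed at 0.113 (range 0.0132 to 0.460). These medians pool control and edited libraries, and TBX15 was chosen for its differences in the edited ones. In hHAR123 neuroectoderm alone the order was reversed, with means of 0.281 CPM per kb for TBX15 and 0.827 for TBX6. The remaining members had medians of at most 0.0747 CPM per kb at either stage. These are bulk libraries, in which more cells with a transcript and more transcript per cell cannot be told apart.

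**Figure D1:**
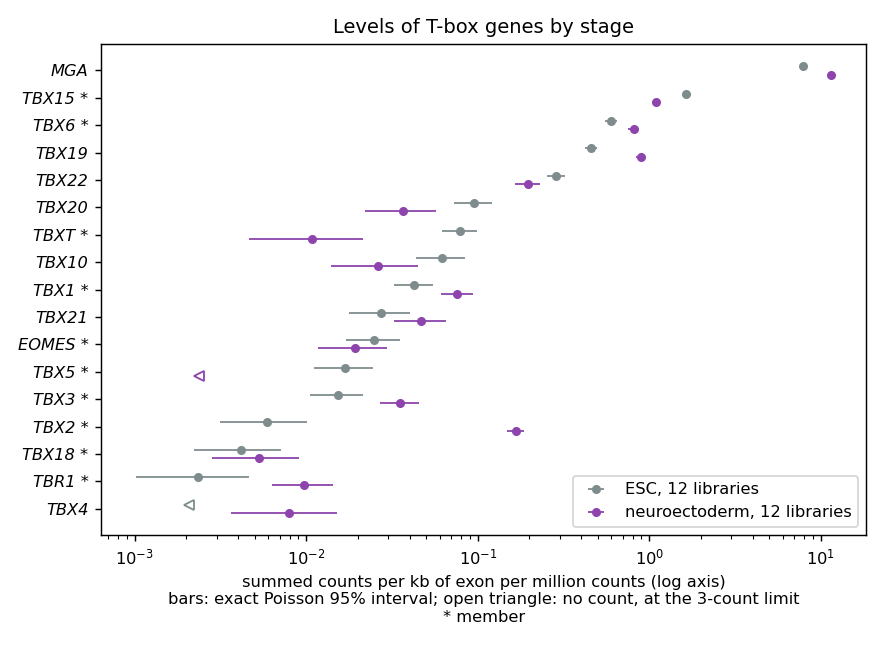
Levels of the 17 T-box genes counted, as summed CPM per kb of exon on a log axis, over 12 ESC libraries (grey) and 12 neuroectoderm libraries (purple); bars are exact Poisson 95% intervals, which cover counting error only, and open triangles mark genes with no count at the limit of 3 counts. MGA, TBX15 and TBX6 stood highest at the ESC stage, and TBX2 differed most between stages among the members counted at both.

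The promoters of TBX6, TBXT and TBX5 are shown because TBX6 was counted in every library and called in no comparison, and TBXT and TBX5 were the members called lower in neuroectoderm when the genotypes were averaged. The sequences are RefSeq promoter entries (GRCh38.p14), of which 7 of the 10 members had one; TBX15, TBX2 and TBX3 had none. Each is printed 5′ to 3′ on the minus strand, ends before the first base of the gene as counted, and has its CpG dinucleotides in capitals.
TBX6, chr16:30091925-30092174, minus strand: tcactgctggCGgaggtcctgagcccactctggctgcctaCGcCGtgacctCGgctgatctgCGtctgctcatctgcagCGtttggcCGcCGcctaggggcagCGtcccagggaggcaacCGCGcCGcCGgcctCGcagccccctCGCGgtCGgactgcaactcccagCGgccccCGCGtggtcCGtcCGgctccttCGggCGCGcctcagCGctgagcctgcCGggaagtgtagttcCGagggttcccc
TBXT, chr6:166168701-166168905, minus strand: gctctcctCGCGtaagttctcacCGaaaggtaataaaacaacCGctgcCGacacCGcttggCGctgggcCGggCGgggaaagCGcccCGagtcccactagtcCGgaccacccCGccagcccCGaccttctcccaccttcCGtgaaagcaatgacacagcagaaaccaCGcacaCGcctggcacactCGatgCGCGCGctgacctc
TBX5, chr12:114408443-114408692, minus strand: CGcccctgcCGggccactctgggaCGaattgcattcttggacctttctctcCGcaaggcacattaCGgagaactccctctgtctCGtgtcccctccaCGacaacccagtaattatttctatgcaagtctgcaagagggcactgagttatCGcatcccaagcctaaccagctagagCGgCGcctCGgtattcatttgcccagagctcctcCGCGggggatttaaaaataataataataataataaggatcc
The TBX6 window held 28 CpGs in 250 bases, the TBXT window 21 in 205 bases and the TBX5 window 13 in 250 bases, beside a median of 11 in the 250 bases upstream over all 35116 promoter entries. The T-box motif AGGTGTGA and its core AGGTGT, which overlaps it, were searched on both strands and occurred in the upstream bases of 0.786% and 9.57% of all entries. Neither was found in an entry of any member. CTTTGA, a TCF/LEF motif found in 11.2% of entries, occurred in entries of TBR1 and TBXT, and TATAAA, found in 10.7%, in entries of EOMES and TBXT. Both TBXT matches lay outside the window printed above.

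TBX15 (ENSG00000092607) spans chr1:118883046-118989556 on the minus strand in GRCh38, and no other counted gene overlaps it. In ESCs its counts were 107, 93 and 106 in hHAR123, 220, 260 and 275 in HAR123-KO, 223, 276 and 249 in cHAR123, and 265, 247 and 260 in mHAR123. The hHAR123 mean was 3.06 CPM ± 0.292 (SD, n = 3), and the edited means were 8.87 ± 0.549 for HAR123-KO, 8.89 ± 1.12 for cHAR123 and 8.41 ± 0.641 for mHAR123. Every edited ESC library lay above every hHAR123 ESC library, and the 3 edited genotypes overlapped one another. In neuroectoderm the counts were 25, 30 and 29 in hHAR123, 181, 151 and 203 in HAR123-KO, 116, 118 and 128 in cHAR123, and 147, 123 and 110 in mHAR123. The means were 1.22 CPM ± 0.0288 in hHAR123, 7.46 ± 1.05 in HAR123-KO, 5.12 ± 0.561 in cHAR123 and 5.17 ± 0.455 in mHAR123. The hHAR123 libraries were again lowest, HAR123-KO was highest, and cHAR123 and mHAR123 lay between them and overlapped each other.

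**Figure D2:**
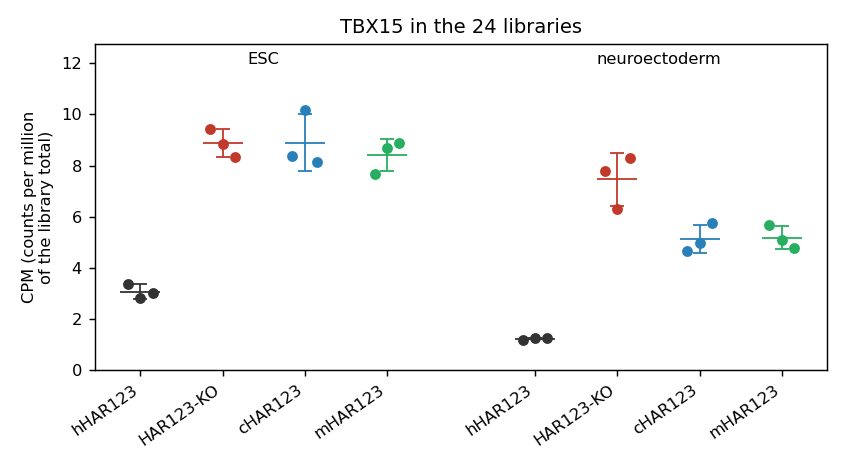
TBX15 in CPM (vertical axis) in each library of the 4 genotypes at both stages; points are libraries, the long bar is the mean of 3 and the whiskers are 1 SD. The hHAR123 libraries sit between 1.19 and 3.38 CPM and the edited libraries between 4.64 and 10.2 CPM.

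TBX15 was chosen for its differences from hHAR123, which are therefore a description without a test. In ESCs the log2 fold change was 1.51 (SE 0.11) in HAR123-KO, 1.51 (SE 0.11) in cHAR123 and 1.41 (SE 0.11) in mHAR123, which are folds of 2.84, 2.84 and 2.66. Over all genes tested, 1.18%, 0.85% and 1.23% passed an adjusted p under 0.01 with an absolute log2 fold change over 1 in these 3 comparisons. In neuroectoderm the log2 fold change was 2.65 (SE 0.16) in HAR123-KO, 2.07 (SE 0.17) in cHAR123 and 2.12 (SE 0.17) in mHAR123, which are folds of 6.29, 4.20 and 4.34. The shares of all genes called there were 9.45%, 0.978% and 1.03%. The difference from hHAR123 was larger in neuroectoderm than in ESCs by 1.14 on the log2 scale in HAR123-KO, 0.57 in cHAR123 and 0.73 in mHAR123. Over all genes, 7.87%, 0.797% and 0.967% were called for such a difference between stages. All these comparisons share the hHAR123 libraries of their stage.

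The edited genotypes were compared with each other to ask whether the chimpanzee or mouse ortholog gave a level other than that of the deletion, and the choice of TBX15 did not use these contrasts. In neuroectoderm, TBX15 was lower than in HAR123-KO by a log2 fold change of -0.56 (SE 0.12) in cHAR123 and of -0.51 (SE 0.12) in mHAR123. Adjusted p-values by edgeR's quasi-likelihood test, over all genes tested, were 4.1e-05 and 0.00027. All 3 libraries of each ortholog lay below all 3 HAR123-KO libraries, and both differences stayed under the log2 fold change of 1 needed for a call. TBX15 in mHAR123 differed from cHAR123 by a log2 fold change of 0.05 in neuroectoderm, with a 95% interval of -0.19 to 0.28. In that comparison 0.261% of all genes were called. In ESCs no pair of edited genotypes passed the test for TBX15, beside 0.271%, 0.244% and 0.158% of all genes called in the comparisons named next, in that order. The log2 fold change was 0.01 (interval -0.17 to 0.19) for cHAR123 against HAR123-KO, -0.09 (interval -0.26 to 0.08) for mHAR123 against HAR123-KO, and -0.09 (interval -0.27 to 0.09) for mHAR123 against cHAR123.

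TBX15 fell from ESC to neuroectoderm in all 4 genotypes, by edgeR's quasi-likelihood test. The log2 fold change was -1.61 (SE 0.18, adjusted p = 3.1e-10) in hHAR123, -1.003 (SE 0.11, adjusted p = 5.8e-11) in cHAR123, -0.86 (SE 0.11, adjusted p = 8.5e-11) in mHAR123 and -0.44 (SE 0.10, adjusted p = 6.2e-05) in HAR123-KO. The hHAR123 and cHAR123 changes passed the fold threshold, beside 21.2% and 20.8% of all genes tested that were called lower. The cHAR123 value lies at the threshold and lost its call with the replicate number as a block, without replicate 1 or 2 of cHAR123 neuroectoderm or replicate 2 of cHAR123 ESCs, and with library totals in place of TMM (-0.80). With library totals the change was -1.32 in hHAR123, -0.69 in mHAR123 and -0.24 in HAR123-KO, whose adjusted p became 0.0234. That scaling moved the median of all genes by 0.169 to 0.292 on the log2 scale, and in hHAR123 it moved the share of stage calls that were higher from 53.7% to 65.5%.

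**Figure D3:**
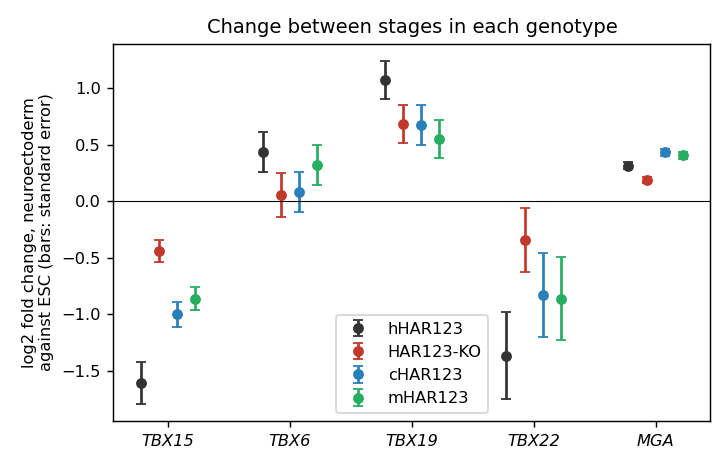
Log2 fold change of neuroectoderm against ESC (vertical axis) for TBX15, TBX6, TBX19, TBX22 and MGA, 1 point per genotype from 6 libraries, with bars of 1 standard error. TBX15 lies below 0 in all 4 genotypes, from -1.61 in hHAR123 to -0.44 in HAR123-KO, TBX22 also lies below 0 in all 4, and TBX6, TBX19 and MGA lie above 0.

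Across the 500 kb on either side of TBX15, 20 other genes were counted. Of these, 4 were tested in an ESC comparison of genotypes and 2 in neuroectoderm, and none was called against hHAR123. Over all genes tested against hHAR123, 0.85% to 1.23% were called in ESCs and 0.978% to 9.45% in neuroectoderm. The nearest gene tested, WARS2, which encodes mitochondrial tryptophanyl-tRNA synthetase, was at 8.94 to 10.4 CPM in hHAR123 ESCs and at 8.29 to 10.8 CPM in the 3 edited genotypes. Its log2 fold change against hHAR123 ranged from -0.05 to 0.10 over the 6 comparisons. WARS2-AS1 ranged from -0.13 to 0.06. WARS2-AS1 rose with differentiation in every genotype, by 1.10 to 1.37 on the log2 scale, and WARS2 had log2 fold changes of 0.00 to 0.14 that did not pass. LINC01780 and ENSG00000227712 fell with differentiation in every genotype, with log2 fold changes of -1.79 to -4.92 and -2.92 to -5.74. In these comparisons 4112 to 4731 of 21509 to 22280 genes tested were called lower. Both genes passed the filter through the ESC group, in which they were higher, so these falls add no support. Against hHAR123 both were tested in ESCs but not in neuroectoderm, where they were too low, with log2 fold changes of 0.12 to 0.50 and 0.21 to 0.53 that did not pass.

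**Figure D4:**
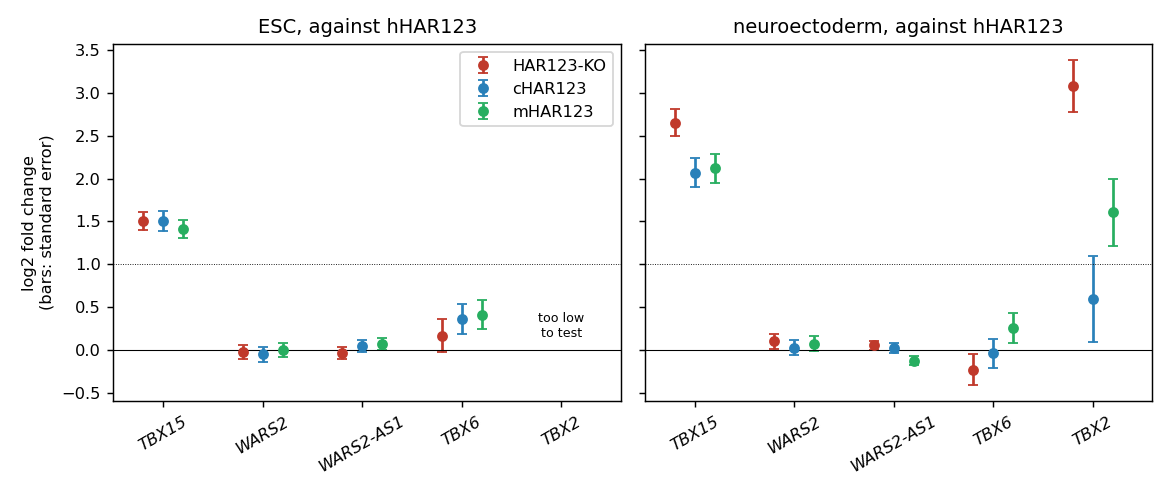
Log2 fold change against hHAR123 (vertical axis) in ESCs and neuroectoderm for TBX15, its neighbours WARS2 and WARS2-AS1, and the members TBX6 and TBX2, with bars of 1 standard error and a dotted line at the fold threshold. TBX15 lies above the dotted line in all 6 comparisons, its neighbours lie near 0, and TBX2 lies above the line in HAR123-KO and mHAR123 neuroectoderm.

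The genes whose log2 CPM followed TBX15 most closely over the 24 libraries, of 24302 compared, were TSPYL5 (Pearson r = 0.937), MIR924HG (0.930), SLC45A3 (0.907), ZNF649 (0.902) and GRIP2 (0.901). These values describe libraries that share genotype and stage, and carry no test. TSPYL5 averaged 3.24 CPM in hHAR123 ESCs and 13.2 to 15.4 CPM in the edited ESCs, and 1.76 CPM in hHAR123 neuroectoderm against 7.49 to 9.87 CPM in the edited genotypes. MIR924HG averaged 3.51 and 3.22 CPM in hHAR123 at the 2 stages and 8.61 to 12.1 CPM in the edited groups. Among the members, TBX6 and TBX2 correlated with TBX15 at r = -0.141 and -0.143. The order of the list depended on the measure, since Spearman's rho kept 2 of the 5 genes and the 12 libraries of either stage alone kept 1.

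TBX18, the closest relative of TBX15, was near the limit of counting. It had 13 counts over the 12 ESC libraries and 13 over the 12 neuroectoderm libraries, with at most 3 in any library. Summed over all genotypes, its ratio of neuroectoderm to ESC on the CPM scale was 1.27, with an exact binomial interval of 0.544 to 2.98. No group of 3 libraries held more than 5 counts, so a difference between genotypes was not detectable at this depth. The TLE genes encode corepressors that TBX15 and TBX18 are known to recruit. All 6 TLE genes examined were tested and none was called against hHAR123 in any genotype at either stage. The shares of all genes called were 0.85% to 1.23% in ESCs and 0.978% to 9.45% in neuroectoderm.

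TBX2, a repressor that acts downstream of BMP signaling in several embryonic tissues, was the member other than TBX15 with the clearest difference between genotypes. In ESCs it had 0 to 2 counts in each library. In neuroectoderm its counts were 5, 4 and 11 in hHAR123, 65, 60 and 48 in HAR123-KO, 2, 16 and 13 in cHAR123, and 28, 17 and 19 in mHAR123. The HAR123-KO libraries lay above all others, those of mHAR123 lay above those of hHAR123, and those of cHAR123 overlapped hHAR123. Mean TBX2 was 2.42 CPM ± 0.424 (SD, n = 3) for HAR123-KO, 0.868 ± 0.191 for mHAR123, 0.446 ± 0.321 for cHAR123 and 0.291 ± 0.159 for hHAR123.

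**Figure D5:**
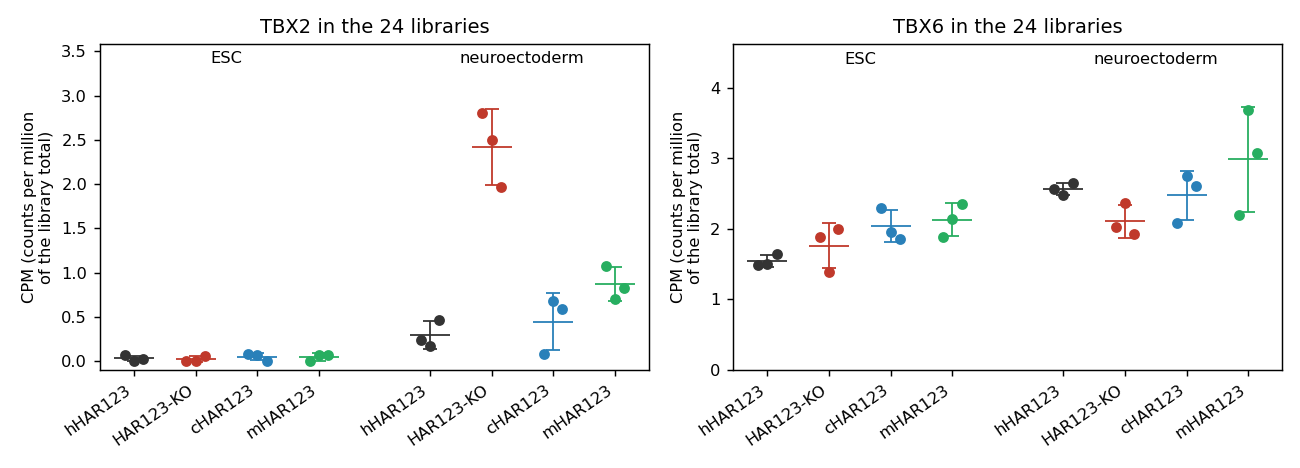
TBX2 (left) and TBX6 (right) in CPM (vertical axes) in each library of the 4 genotypes at both stages; points are libraries, the long bar is the mean of 3 and the whiskers are 1 SD. TBX2 is near 0 in all ESC libraries and reaches at most 2.80 CPM, in HAR123-KO neuroectoderm, and TBX6 lies between 1.39 and 3.68 CPM throughout.

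By edgeR's quasi-likelihood test, TBX2 rose in HAR123-KO neuroectoderm against hHAR123 by a log2 fold change of 3.08 (SE 0.30, adjusted p = 1.7e-12), an 8.45-fold difference with a 95% interval of 5.59 to 12.8. It was 1 of 2 members tested besides TBX15, and 4.92% of all genes tested were called higher in this comparison. It passed the filter on low counts through the HAR123-KO group, and it was also called with no filter. In mHAR123 the log2 fold change was 1.61 (SE 0.39, adjusted p = 0.0021), beside 0.603% of genes called higher. Here TBX2 passed the filter through the mHAR123 group, and it was called with no filter too (adjusted p = 0.00048). This call was lost with DESeq2 and without replicate 1 or 2 of hHAR123 neuroectoderm or replicate 1 of mHAR123 neuroectoderm. In cHAR123 the log2 fold change was 0.59 (interval -0.40 to 1.59), which did not pass. TBX2 was lower than in HAR123-KO by -2.46 (SE 0.29, adjusted p = 9.8e-11) in cHAR123 and by -1.45 (SE 0.23, adjusted p = 6.6e-07) in mHAR123, where 3.91% and 3.78% of all genes were called lower. For cHAR123, TBX2 passed the filter through the HAR123-KO group, in which it was high. Its log2 fold change in that comparison was -2.47 to -2.45 under the alternative settings, no filter included. The difference of 1.01 between mHAR123 and cHAR123 did not pass (adjusted p = 0.11).

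TBX2 rose with differentiation. Summed over the 4 genotypes, 13 counts in ESCs stood against 288 in neuroectoderm, and the fit averaged over the 4 genotypes, without a filter, called it higher in neuroectoderm (edgeR adjusted p = 5.2e-35), beside 16.6% of all genes. In the fits of single genotypes TBX2 passed the filter only in HAR123-KO and mHAR123, through the neuroectoderm group in which it was high, so these calls (beside 22% and 21.3% of genes called higher) add no support. Without a filter it was called higher in all 4 genotypes. The ratio of neuroectoderm to ESC on the CPM scale was 103 in HAR123-KO (exact interval 28.2 to 861), 20.1 in mHAR123 (7.50 to 76.2), 9.72 in hHAR123 (2.88 to 51.1) and 9.22 in cHAR123 (3.26 to 35.9). These intervals cover counting error only and overlap one another. The test of whether the HAR123-KO effect differed between stages gave an adjusted p of 0.065 for TBX2, with ESC counts near 0 in both genotypes.

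TBX3, the closest relative of TBX2, had fewer summed counts than TBX2 in neuroectoderm (60 against 288) and more in ESCs (33 against 13). In neuroectoderm its summed counts over 3 libraries were 10 in hHAR123, 26 in HAR123-KO, 19 in cHAR123 and 5 in mHAR123. The HAR123-KO libraries ranged from 3 to 15 counts and overlapped the 1 to 6 of hHAR123, and without a filter the difference did not pass (adjusted p = 0.080). Without a filter, TBX3 was lower in mHAR123 than in HAR123-KO by a log2 fold change of -2.31 (SE 0.70, edgeR adjusted p = 0.0050), beside 2.41% of genes called lower in that fit. DESeq2 did not make this call, and 15 of the 26 HAR123-KO counts were in 1 library. Summed over all genotypes, TBX3 had 33 counts in ESCs and 60 in neuroectoderm, a CPM ratio of 2.32 (exact interval 1.49 to 3.66).

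TBX2 and TBX3 are known BMP-responsive genes, and BMP ligands and response genes were therefore examined with them. The study itself drew attention to some of these and the following list genes on these samples, so the counts are not independent evidence of a direction. In HAR123-KO neuroectoderm, 10 of 13 rose and 1 fell against hHAR123, with a median log2 fold change of 1.52 beside 0.00 over all genes tested, where 4.92% of all genes were called higher and 4.52% lower. BMP4 rose by 4.49 (SE 0.13) and BMP5 by 3.79 (SE 0.09), both ligands. In cHAR123 and mHAR123 neuroectoderm 4 and 2 of the 13 rose and none fell, beside 0.978% and 1.03% of all genes called. In HAR123-KO ESCs, 1 of 11 tested rose, beside 1.18% of all genes called. Genes of neural crest, placode and pharynx moved in the same libraries. In HAR123-KO neuroectoderm 9 of the 13 tested of 14 rose and 2 fell (4.52% of all genes were called lower), led by FOXD3 at 6.27 (SE 0.06) and PAX7 at 6.09 (SE 0.07). The summed level of that list was 217 to 225 CPM in hHAR123, 1742 to 1762 in HAR123-KO, 378 to 387 in cHAR123 and 417 to 420 in mHAR123 neuroectoderm, and its part in the TBX2 difference was not tested. No gene of the list was at 0 in any neuroectoderm group. Mesenchyme and limb genes, among which TBX15 and TBX18 are known to act, were mostly too low to test. Of 6 tested of 14, 3 rose in HAR123-KO neuroectoderm, including OSR1 (1.44) and ALX1 (1.38), and none of 3 tested was called in any edited ESC genotype against hHAR123.

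TBX6 (ENSG00000149922, chr16:30085793-30091924) had 41 to 89 counts in every library. In ESCs it averaged 1.55 CPM ± 0.0892 in hHAR123, 1.76 ± 0.322 in HAR123-KO, 2.04 ± 0.227 in cHAR123 and 2.13 ± 0.237 in mHAR123. In neuroectoderm it averaged 2.57 ± 0.0840, 2.11 ± 0.236, 2.48 ± 0.350 and 2.98 ± 0.749 CPM in the same order. TBX6 was called in no comparison of genotypes or stages. The 95% intervals of its log2 fold change against hHAR123 lay within -0.58 to 0.75 over the 6 comparisons, and the largest difference between edited genotypes was 0.51 (adjusted p = 0.019) for mHAR123 against HAR123-KO in neuroectoderm. With library totals in place of TMM, TBX6 was higher in neuroectoderm by 0.73 in hHAR123 (adjusted p = 0.00035) and by 0.49 in mHAR123 (adjusted p = 0.0089), under the fold threshold in both.

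YPEL3-DT is the divergent transcript of YPEL3, which it overlaps on the opposite strand. Its start lies within 5 kb of the TBX6 start, and it does not overlap TBX6. YPEL3-DT fell in every edited genotype at both stages. It had 161 to 176 counts in hHAR123 ESCs and 20 to 34 in the edited ESCs, and 173 to 201 counts in hHAR123 neuroectoderm and 24 to 35 in the edited genotypes. The log2 fold change was -2.32 to -2.55 in ESCs and -2.63 to -2.97 in neuroectoderm, called by edgeR in all 6 comparisons, which share their hHAR123 libraries. The shares of all genes called in them were 0.85% to 1.23% in ESCs and 0.978% to 9.45% in neuroectoderm. YPEL3, which also starts within 5 kb of TBX6, had log2 fold changes of -0.31 to -0.16 and was called in none.

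TBXT, the marker of the primitive streak, had 74 counts over the 12 ESC libraries, with 3 to 17 in each, and 8 counts over the 12 neuroectoderm libraries, with none in 7 of them. The highest library, with 17, was of HAR123-KO ESCs, whose other libraries overlapped hHAR123. The CPM ratio of neuroectoderm to ESC was 0.138 (exact interval 0.0573 to 0.286), and the fit averaged over the 4 genotypes, without a filter, called TBXT lower with a log2 fold change of -2.99 (SE 0.49, adjusted p = 2.2e-09). In that fit 15.2% of all genes were called lower. EOMES had 33 counts in ESCs and 20 in neuroectoderm, with 0 to 5 in each library, and its log2 fold change of -0.64 did not pass (adjusted p = 0.30). No difference between genotypes passed for either gene.

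Of 19 mesendoderm genes that act with TBXT and EOMES, most were too low to test. In HAR123-KO neuroectoderm 7 were tested, of which 3 rose and 3 fell, beside 4.92% and 4.52% of all genes. WNT3A, a ligand that acts upstream of TBXT in the tail bud, rose by 4.03 (SE 0.21), and LHX1 fell by 2.30 on the log2 scale (SE 0.40). TBXT itself had 1 count in the 3 HAR123-KO neuroectoderm libraries. In ESCs 9 were tested, of which 2 rose in HAR123-KO, 1 in cHAR123 and none in mHAR123, beside 1.18%, 0.85% and 1.23% of all genes called. The summed level of the list was 18.3 to 18.8 CPM in hHAR123 ESCs and 24.2 to 31.7 CPM in the edited ESCs.

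TBX5, a regulator of heart and forelimb, had 27 counts over the ESC libraries, at most 4 in each, and no count in any of the 12 neuroectoderm libraries. Against the limit of 3 counts over the 12 libraries, TBX5 was at least 7.07-fold lower in neuroectoderm. This limit leaves out the counting error of the 27 ESC counts, and the exact interval of the ratio of neuroectoderm to ESC reached up to 0.186. The averaged fit without a filter called it lower (adjusted p = 1.4e-05). Each genotype had 6 to 9 TBX5 counts in ESCs, and no genotype comparison was called.

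TBX1, which patterns the pharyngeal arches, had 59 counts in ESCs and 83 in neuroectoderm, with 0 to 13 in each library. Its CPM ratio of neuroectoderm to ESC was 7.29 in hHAR123 (exact interval 2.74 to 24.4) and 0.569 in HAR123-KO (0.239 to 1.26). The ratio was 2.08 in cHAR123 (1.09 to 4.12) and 1.48 in mHAR123 (0.737 to 3.01). In ESCs the counts were 3, 2 and 0 in hHAR123, 11, 5 and 5 in HAR123-KO, 7, 3 and 6 in cHAR123, and 5, 2 and 10 in mHAR123. In neuroectoderm they were 11, 6 and 8 in hHAR123, 4, 5 and 1 in HAR123-KO, 9, 13 and 6 in cHAR123, and 5, 8 and 7 in mHAR123. The mean CPM of HAR123-KO was thus above that of hHAR123 in ESCs and below it in neuroectoderm. Neither difference passed in edgeR without a filter, with log2 fold changes of 2.21 (adjusted p = 0.040) and -1.31 (adjusted p = 0.092), beside 0.76% and 5.92% of all genes called. The difference between the 2 effects was called without a filter, at -3.50 (SE 0.94, edgeR adjusted p = 0.0014), beside 2.19% of genes called lower, and TBX1 did not pass the filter there. TBX1 overlaps GNB1L on the opposite strand, which had 6090 counts over the 24 libraries and fell with differentiation in every genotype by 1.15 to 1.47 on the log2 scale. Whether reads were counted by strand is not given in the sources used here, so those of TBX1 and GNB1L may not be separated where the genes overlap.

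TBR1, a gene of deep-layer cortical neurons, had 8 counts over the ESC libraries and 26 over the neuroectoderm libraries, of which 13 were in hHAR123. The CPM ratio was 4.14 (exact interval 1.82 to 10.6), and the averaged fit without a filter gave a log2 fold change of 1.95 (adjusted p = 0.012), which did not pass. The end of TBR1 overlaps the start of SLC4A10 on the same strand. SLC4A10 had 2326 counts over the 24 libraries and rose with differentiation in every genotype, by 2.28 to 2.56 on the log2 scale. Whether reads of SLC4A10 entered the TBR1 counts was not tested. Of 12 cortical excitatory lineage genes, 7 to 9 rose with differentiation in each genotype, beside 21.3% to 24.6% of all genes. In HAR123-KO neuroectoderm 1 rose and 3 fell against hHAR123, beside 4.92% and 4.52% of all genes, with FEZF2 lower by -3.60 (SE 0.06) and NEUROG1 higher by 2.84 (SE 0.14), whereas TBR1 had 4 counts there and EOMES 2.

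Of the 7 T-box genes that are not members, 1 was called against hHAR123, in HAR123-KO neuroectoderm, beside 9.45% of all genes. Only MGA, TBX19 and TBX22 passed the filter in that comparison. MGA, a MAX partner with a T-box domain, was the T-box gene with the highest level, at a median of 7.89 CPM per kb in ESCs and 11.7 in neuroectoderm, and its log2 fold change against hHAR123 lay between -0.12 and 0.03. TBX19, a pituitary regulator, rose with differentiation in hHAR123 by 1.07 (SE 0.17, adjusted p = 3.5e-07), where 24.6% of all genes were called higher. TBX22, a palate gene, had 2, 12 and 9 counts in hHAR123 neuroectoderm and 24, 15 and 20 in those of HAR123-KO, and differed by 1.34 on the log2 scale (SE 0.39, adjusted p = 0.0034) by edgeR. It passed the filter through the HAR123-KO group and was called with no filter as well (1.34, adjusted p = 0.0017), whereas DESeq2 did not call it. TBX22 also fell with differentiation in hHAR123 by 1.37 on the log2 scale (SE 0.38), where 21.2% of all genes were called lower. It passed the filter there through the ESC group, in which it was higher, so this call adds no support. TBX4, TBX10, TBX20 and TBX21 had at most 9 counts in any library. Of these, TBX10 and TBX20 were called lower in neuroectoderm by the averaged fit without a filter, beside 15.2% of all genes.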

How the data were processed

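Ribosomal RNA-depleted, strand-specific libraries were sequenced from 24 samples. The authors aligned the read pairs to GRCh38 with STAR 2.5.2b, and the deposited table holds raw counts of exonic reads per gene from featureCounts, beside the exon length of each gene. An entry broken over 3 lines was left out, leaving 61551 genes.

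Groups came from the sample labels. Each pair of groups was fitted alone in edgeR 4.0.16 (R 4.3.3) with filterByExpr, TMM and the quasi-likelihood F test. P-values were adjusted by Benjamini-Hochberg over all genes tested, and a call needed an adjusted value under 0.01 together with a log2 fold change beyond 1 in size. Interactions used 12 libraries. The SE was obtained from the log2 fold change and F. A gene without a count was set at the limit of 3 counts; such limits and the intervals of count ratios cover counting error only. Fits were tested on simulated data. Replicate libraries differed by more than sampling noise (chi-square over its degrees of freedom, 1.41 to 5.53).

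Alternatives were DESeq2 1.42.0, its size factors, no filter, 1 fit of all 24 libraries, a replicate block and leaving out each library. The stage effect averaged over genotypes and library totals in place of TMM were added after seeing the data. Named genes were the members, the other T-box genes, genes within 500 kb of TBX15, genes overlapping a member or starting within 5 kb of its start, the 5 genes most correlated with TBX15 and, of each gene list, the 2 largest changes called in HAR123-KO neuroectoderm. The members and lists were chosen with earlier results of these data known.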

Additional observations from a re-analysis of the deposited data

Results flagged for a closer look

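TBX1 was flagged because the difference between HAR123-KO and hHAR123 had opposite directions at the 2 stages, by a test of the interaction. Without a filter on low counts, the HAR123-KO effect was lower in neuroectoderm than in ESCs by a log2 value of -3.50 (SE 0.94, edgeR adjusted p = 0.0014), in a fit in which 2.19% of all genes were called lower. HAR123-KO had 21 counts in ESCs against 5 in hHAR123, and 10 in neuroectoderm against 25. TBX1 did not pass the filter in the 12 libraries of that comparison. With the filter and all 24 libraries in one fit it was called as well. It passed that filter through libraries in which it was high, so this call adds no support. DESeq2 called no member lower for this effect. The TBX1 counts are 0 to 11 in each of the 12 libraries of the comparison.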

How the results depend on the processing

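Leaving out 1 library at a time kept TBX15 within 1.45 to 1.59 (HAR123-KO), 1.40 to 1.58 (cHAR123) and 1.35 to 1.49 (mHAR123) on the log2 scale against hHAR123 in ESCs, and within 2.57 to 2.76, 1.98 to 2.14 and 2.05 to 2.17 in neuroectoderm. The number of members called differed from the reported one under these settings. Without a filter, 2 members were lower in mHAR123 than in HAR123-KO neuroectoderm in place of 1. With DESeq2, 0 members were called higher in mHAR123 neuroectoderm against hHAR123 in place of 1, and leaving out a library gave 0 to 1. For the HAR123-KO effect between stages, 1 member was called lower with all 24 libraries, 1 with no filter and 0 to 1 leaving out a library, in place of 0. For cHAR123 between stages, 1 was called higher with all 24 libraries or no filter, and 0 to 1 leaving out a library, in place of 0; 0 were called lower with the replicate block or library totals, and 0 to 1 leaving out a library, in place of 1. For HAR123-KO between stages, 1 was called lower with DESeq2 or no filter in place of 0. For hHAR123 between stages, 2 were called higher with all 24 libraries or no filter, and 0 to 1 leaving out a library, in place of 0. In the averaged stage fit, removing the filter gave 2 called lower in place of 0. The cause was not tested beyond the genes that a filter admits.

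TBX15 in cHAR123 against HAR123-KO ESCs changed sign with all 24 libraries (-0.0024) and with DESeq2 (-0.0019), and ranged from -0.10 to 0.066 leaving out a library. Leaving out a library, TBX15 in mHAR123 against cHAR123 ranged from -0.02 to 0.13 in neuroectoderm and from -0.15 to 0.016 in ESCs. TBX6 ranged from -0.023 to 0.13 (mHAR123 against cHAR123, ESCs), -0.12 to 0.076 (cHAR123 against hHAR123, neuroectoderm), -0.32 to 0.056 (mHAR123 effect between stages) and -0.11 to 0.18 (HAR123-KO between stages). The cHAR123 effect on TBX2 between stages was -0.0075 with library totals and ranged from -0.81 to 0.58. None of these passed the test.

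Of the 5 genes most like TBX15, 2 were kept by Spearman's rho, 1 by the ESC libraries and 1 by the neuroectoderm libraries. With DESeq2, 0 other T-box genes rose in HAR123-KO neuroectoderm in place of 1, and 1 gene of the neural crest list fell in place of 2. In the same comparison 8 genes of the neural crest list rose in place of 9. Of the mesendoderm list 2 rose in place of 3, and of the mesenchyme and limb list 2 in place of 3. DESeq2 called 125 genes higher and 26 lower in HAR123-KO ESCs, where edgeR called 200 and 46. It called 50 and 23 in cHAR123 ESCs (edgeR 131 and 47), 96 and 24 in mHAR123 ESCs (217 and 42), 71 and 44 in cHAR123 neuroectoderm (111 and 97), and 76 and 28 in mHAR123 neuroectoderm (128 and 91). Between edited genotypes it called 3 and 16 in ESCs for cHAR123 against HAR123-KO (17 and 39), 9 and 11 for mHAR123 against HAR123-KO (21 and 30), and 7 and 7 for mHAR123 against cHAR123 neuroectoderm (22 and 33). For the difference of an effect between stages it called 48 and 71 for cHAR123 (56 and 130) and 59 and 93 for mHAR123 (72 and 157). Library totals moved the share of higher calls for the latter from 31.4% to 18.5%.

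Same-numbered libraries of different groups had correlations of their deviations of -0.024 to 0.040 over 84 pairs, none over 0.1, so the numbers do not pair the libraries. With the replicate block, TBX15 in cHAR123 between stages fell just short of the fold threshold and lost its call, and no other call of a member changed with the replicate block.

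Depth limits the 7 low members. At 3 counts, a library of the smallest total can hold 0.143 CPM unseen.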
